A study of Populus trichocarpa with 28 samples.

Results

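The 7 genes described here are transcription factors and receptor kinases of the shoot meristem and the vascular cambium of Populus trichocarpa, black cottonwood. They were chosen by name and not by any measured value: ARK1 (Potri.011G011100) and its paralog (Potri.004G004700), ARK2 (Potri.002G113300), WOX4a (Potri.014G025300) and WOX4b (Potri.002G124100), and PXYa (Potri.003G107600) and PXYb (Potri.001G126100). They are 7 of the 41335 genes counted in the series, and all 7 also have an entry in the intron counts.

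ARBORKNOX genes encode KNOX homeobox transcription factors. In poplar, ARK1 is the counterpart of Arabidopsis SHOOT MERISTEMLESS, which keeps cells of the shoot apical meristem undetermined, and ARK2 is the counterpart of BREVIPEDICELLUS; both are also active in the cambium, the layer of dividing cells that makes wood and inner bark. PXY, first described in Arabidopsis, is a leucine-rich repeat receptor kinase at the surface of cambium cells that binds a CLE peptide sent from the phloem, and WOX4, a WUSCHEL-related homeobox factor, acts below that receptor to keep the cambium dividing. KNOX genes of this kind are switched off in the simple leaves of Arabidopsis, whereas leaves and roots carry vascular tissue in which PXY and WOX4 can be used.

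The study asked how poplar tissues respond to a short and to a long drought. Plants raised from rooted stem cuttings grew in a greenhouse at 20 to 35 C and were watered to field capacity for 2 months. Drought plants were then held at 40% of field capacity for 24 h or for 25 days, and controls stayed at field capacity. RNA libraries kept the strand of each read, so that sense and antisense reads were counted apart for whole genes and for introns. The droughted and control groups were, after 24 h, apex and mature leaves as total RNA depleted of ribosomal RNA, and, after 25 days, apex, young leaves and mature leaves as mRNA and root both as mRNA and as depleted total RNA. Each of these 14 groups has 2 libraries, 28 in all, and no genotype or transgene is named in the labels. The protocol speaks of apex leaf tissue, so the apex samples may hold young leaf as well as the shoot tip. In bulk tissue of this kind, fewer cells that use a gene and less RNA per cell cannot be told apart.

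The libraries held 20249489 to 67062224 sense counts. The numbers in the sample titles are 35 and 69 for droughted and 19 and 49 for control plants at 24 h, and 64 and 68 for droughted and 63 and 70 for control plants at 25 days. Whether a group's libraries come from separate plants is not stated, so p-values measure the spread between these libraries, which may be partly technical. Root files are marked as merged, with no word on what was merged. Levels are given in CPM, read counts scaled to a common library size, with trimmed mean of M-values over all 28 libraries; since gene lengths were not used, levels are compared between samples of a gene and never between genes.

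The paralog and ARK2 were shoot apex and root genes, ARK1 was mainly a shoot apex gene with few root reads, and each had next to no reads in leaves. In the 6 leaf groups, each library held 0 or 1 sense read of each of these KNOX genes. ARK1 had 3.47 and 3.69 CPM in droughted and 5.07 and 4.48 CPM in control apices at 25 days, its 2 highest group means, and 2.43 and 3.79 CPM in droughted and 2.67 and 2.30 CPM in control apices at 24 h. In root mRNA libraries ARK1 had 0.0146 and 0.556 CPM under drought and 0.139 and 0.732 CPM in controls, from 1 and 37 reads and from 11 and 52 reads.

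In well-watered plants of the 25-day experiment, ARK1 was 11-fold higher in apex than in root mRNA (log2 3.47 ± 0.65 SE, adjusted p = 0.00275, edgeR's quasi-likelihood test with Benjamini-Hochberg adjustment over 28085 genes). The log2 estimate was 2.70 without control root library 63 and 5.07 without control root library 70, and it passed the test in both. The paralog of ARK1 ran the other way, 7.37-fold lower in apex than in root (log2 -2.88 ± 0.19, adjusted p = 1.9e-05). ARK2 was likewise 6.10-fold lower in apex than in root (log2 -2.61 ± 0.16, adjusted p = 1.33e-05). The log2 ratio of ARK1 to paralog reads was accordingly 0.25 and 0.21 in control apices, against -7.72 and -5.40 in control root mRNA. Paralogs may share reads that the counting assigned or dropped, so these are not transcript ratios, and only their change between samples is compared.

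Against leaves, folds of the KNOX genes are lower bounds, taken against 3 counts over a leaf group with 0 reads. Control apices at 25 days exceeded control mature leaves at least 58.8-fold for ARK1, at least 50.1-fold for the paralog and at least 185-fold for ARK2. Control root mRNA exceeded control young leaves at least 466-fold for the paralog and at least 1423-fold for ARK2. ARK1 had 63 reads in control root mRNA and 1 read in control young leaves, a ratio of 19.5 with a 95% exact interval of 3.38 to 782 that covers counting error only.

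In the 25-day experiment, WOX4a and WOX4b were highest in root, lower in apex, lower again in young leaves and lowest in mature leaves. The droughted 24 h apex stood outside that order, with group means of 2.02 CPM of WOX4a, the lowest of the 14 groups, and 0.563 CPM of WOX4b. WOX4a had 46.0 and 50.1 CPM in droughted and 87.7 and 105 CPM in control root mRNA, and 11.2 and 10.2 CPM in droughted and 10.6 and 11.5 CPM in control apices at 25 days. Young leaves held 4.71 and 6.72 CPM of WOX4a under drought and 6.34 and 6.85 CPM in controls, and mature leaves 2.1 and 3.0 CPM under drought and 3.16 CPM in each control library. WOX4b followed the same order, with group means of 64.3 CPM in control root mRNA, 4.80 CPM in control apex, 1.55 CPM in control young leaves and 0.699 CPM in control mature leaves.

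Each step of that order passed the test in the 25-day controls for both WOX4 genes, the last one for WOX4b with exceptions. Apex against root gave -3.12 ± 0.15 for WOX4a and -3.74 ± 0.23 for WOX4b on the log2 scale, 8.70-fold and 13.3-fold lower. Apex was higher than young leaves by 0.75 ± 0.15 for WOX4a (adjusted p = 0.00519) and by 1.64 ± 0.25 for WOX4b (adjusted p = 0.00122). Young leaves were higher than mature leaves by 1.05 ± 0.17 for WOX4a (adjusted p = 0.00246) and by 1.12 ± 0.33 for WOX4b (adjusted p = 0.0365). The last of these rests on 29 and 42 reads of WOX4b in control young leaves and 15 and 11 reads in control mature leaves. Its call was lost in 5 of 11 alternatives: without young leaf library 70 (adjusted p = 0.188), mature leaf library 63 (0.0925) or 70 (0.14), or apex library 63 (0.0581) or 70 (0.0584).

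PXYa and PXYb had the same root maximum with a shallower slope through the shoot. PXYa had 98.2 and 117 CPM in droughted and 237 and 259 CPM in control root mRNA, and 99.7 and 89.4 CPM in droughted and 73.7 and 75.5 CPM in control apices at 25 days. PXYb had 117 and 145 CPM in droughted and 268 and 293 CPM in control root mRNA, and 88.9 and 60.5 CPM in droughted and 54.4 and 59.6 CPM in control apices. Between control apex and control young leaves the difference was 0.34 ± 0.17 on the log2 scale for PXYa (adjusted p = 0.143) and -0.26 ± 0.17 for PXYb (adjusted p = 0.257), below the threshold for both receptors. Both exceeded control mature leaves in control apex, PXYa 4.41-fold (log2 2.14 ± 0.18) and PXYb 2.13-fold (log2 1.09 ± 0.17), and in control young leaves, PXYa 3.47-fold and PXYb 2.56-fold.

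Counted over the long-term controls, 1 of the 7 genes was higher and 6 were lower in apex than in root, where 33.4% and 27.4% of 28085 genes tested were. All 7 were higher in apex than in mature leaves, against 28.2% of genes tested, and 5 of 7 were higher in apex than in young leaves, against 18.8%. All 7 were higher in root than in young leaves and than in mature leaves, against 29.0% and 31.2%. The ARK1 call against young leaves was lost in 5 of 11 alternatives: without young leaf library 63 (adjusted p = 0.106) or 70 (0.163), root library 70 (0.0757), or apex library 63 (0.0605) or 70 (0.0613). Against mature leaves it was lost without mature leaf library 63 (0.111) or 70 (0.0935). From young to mature leaves, 4 of 7 were higher in young leaves, against 14.5%, the other 3 being the KNOX genes with 0 or 1 read. In the 24 h controls, 6 of 7 were higher in apex than in mature leaves, against 28.1% of 26757 genes; PXYb was the exception (log2 0.31 ± 0.21, adjusted p = 0.254).

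**Figure D1:**
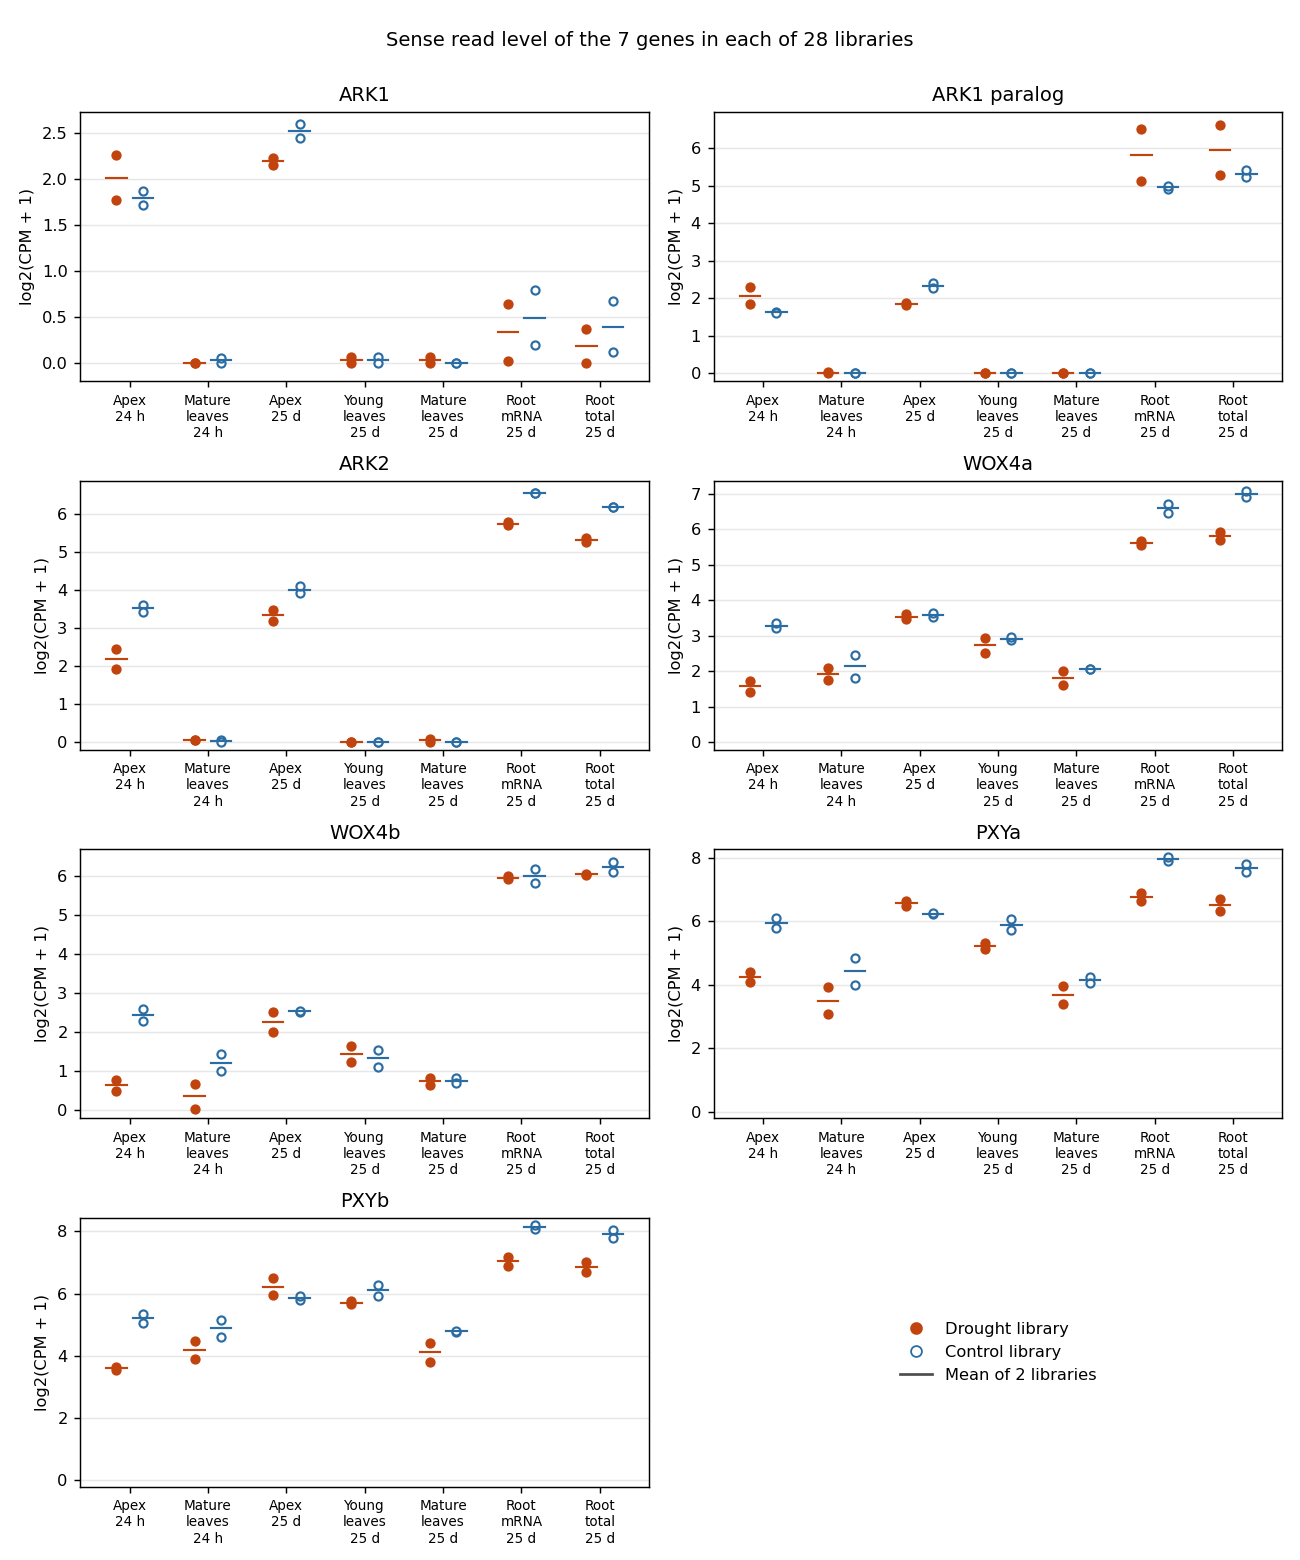
Sense read level of each of the 7 genes on the log2(CPM + 1) scale, in 7 combinations of tissue, drought length and library type, with droughted libraries (filled) left of control libraries (open) and a line at the mean of 2. The 3 KNOX genes lie at or near 0 in leaves, and 6 of the 7 genes have their highest means in root, ARK1 its highest in the apex at 4.78 CPM in 25-day controls.

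After 24 h of drought, 5 of the 7 genes fell in the apex: ARK2, both WOX4 genes and both PXY genes. ARK2 had 2.81 and 4.45 CPM in droughted and 11.2 and 9.71 CPM in control apices, a 3.0-fold decrease (log2 -1.59 ± 0.25, adjusted p = 0.00188). WOX4a had 2.35 and 1.68 CPM in droughted and 8.32 and 9.27 CPM in control apices, a 4.54-fold decrease (log2 -2.18 ± 0.23, adjusted p = 0.000367). WOX4b, with 30 and 18 reads in droughted and 343 and 169 reads in control apices, fell most among the 7 genes, 8.24-fold (log2 -3.04 ± 0.35, adjusted p = 0.00055).

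The receptor genes fell by amounts close to each other. PXYa had 15.9 and 20.0 CPM in droughted and 67.5 and 54.4 CPM in control apices, a 3.54-fold decrease (log2 -1.82 ± 0.18, adjusted p = 0.000301). PXYb had 11.5 and 10.8 CPM in droughted and 39.7 and 32.5 CPM in control apices, a 3.37-fold decrease (log2 -1.75 ± 0.16, adjusted p = 0.000226). For all 5 genes the droughted libraries lay below both control libraries. The calls were made on these same libraries. Here and in every other comparison, the share of all genes without overlap was not counted. Each call also held with DESeq2, with no count filter and with shared dispersions. On leaving out a library, all 5 estimates stayed negative.

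ARK1 and its paralog did not pass the test in the same apices, and both estimates were above 0. ARK1 had 2.43 and 3.79 CPM in droughted and 2.67 and 2.30 CPM in control libraries, which overlap (log2 0.26 ± 0.28, adjusted p = 0.449). Its estimate was -0.10 without droughted library 69. In this and every other result with a droughted or control library left out, the library that remains alone in its group is assumed to vary like those of the other groups in the test. The paralog had 2.62 and 3.90 CPM in droughted and 2.13 and 2.07 CPM in control libraries, with no overlap (log2 0.57 ± 0.27, adjusted p = 0.102), and of the 7 alternatives it passed the threshold in 1, without droughted library 35, at 0.83 (adjusted p = 0.0196).

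The 24 h apex comparison called a large share of all genes, 32.3% of 27027 lower and 30.0% higher, beside which the 5 of 7 lower and 0 of 7 higher are to be read. Genes that mark the apex moved too. Of 1082 apex genes, defined from the controls of the 25-day experiment as at least 8-fold higher in apex than in mature leaves and at 5 CPM or more, 1076 were tested, 924 were lower and 53 higher, and the median over the list was log2 -3.01, against -0.00 for all genes. ARK2 met that rule too, alone among the 7 genes, and was left out of the list. The summed level of the list was 13705 to 19088 CPM in droughted and 53905 to 63479 CPM in control apices. Of 674 mature leaf genes tested, 367 were higher and 89 lower (median 1.09), with a summed level of 76530 to 87334 CPM in droughted and 62724 to 69358 CPM in control apices. The part of these shifts in the results for the 7 genes was not tested.

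Within that apex list 6.13% of the 1076 apex genes had a higher estimate than ARK1, 5.20% a higher one than the paralog and 26.3% a higher one than ARK2. ARK2 thus lay next to the PXY genes, and WOX4b at the middle of the list, with 29.0% of apex genes above PXYb, 30.2% above PXYa, 35.5% above WOX4a and 50.3% above WOX4b.

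**Figure D2:**
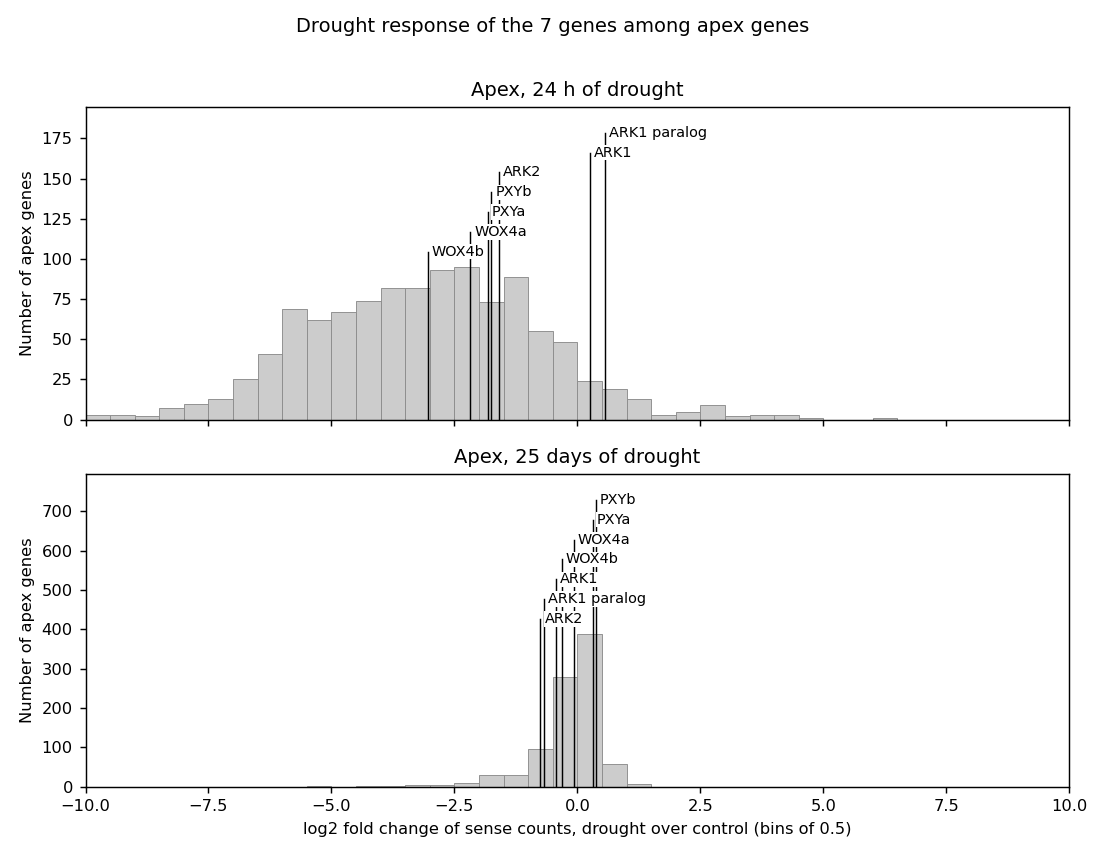
Number of apex genes in bins of 0.5 of log2 fold change, droughted over control apex, after 24 h (top) and 25 days (bottom), with lines at the values of the 7 genes. At 24 h the list is centred at -3.01 with ARK1 and its paralog at 0.26 and 0.57, and at 25 days the list is centred at -0.01.

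In mature leaves after 24 h, 4 of the 7 genes had enough reads to be tested and 0 passed the threshold, where 9.20% of 25054 genes were lower and 8.73% higher; 1 of the 4, PXYb, had an unadjusted p under 0.05, and DESeq2 called 0. PXYb had 21.5 and 13.8 CPM in droughted and 23.2 and 34.9 CPM in control leaves, without overlap (log2 -0.69 ± 0.28, adjusted p = 0.136). PXYa had 14.2 and 7.42 CPM in droughted and 14.8 and 28 CPM in control leaves, also without overlap (log2 -0.96 ± 0.42, adjusted p = 0.172). WOX4b had 21 and 1 reads in droughted and 25 and 51 reads in control leaves, again without overlap (log2 -2.02 ± 0.92, adjusted p = 0.179). Without droughted library 35, which leaves library 69 as the only droughted one and the spread to the controls, the estimates were log2 -1.47 for PXYa and -1.02 for PXYb, and both passed, as did WOX4b with 1 read under drought. These 3 depend on the single library 69.

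After 25 days of drought, none of the 7 genes was called in the apex, where 0.136% of 25068 genes were lower and 0.0279% higher; 3 of 7 had an unadjusted p under 0.05, and DESeq2 called 0. ARK2 had 8.06 and 10.1 CPM in droughted and 14 and 16 CPM in control apices, without overlap (log2 -0.75 ± 0.17, unadjusted p = 0.00308, adjusted p = 0.177). The paralog had 2.67 and 2.52 CPM in droughted and 4.27 and 3.87 CPM in control apices, also without overlap (log2 -0.67 ± 0.22, adjusted p = 0.324). ARK1 stood at -0.44 ± 0.21 (adjusted p = 0.495), again without overlap.

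Estimates for the cambium genes in these apices lay closer to 0. WOX4a stood at -0.07 ± 0.15 and WOX4b at -0.32 ± 0.26 on the log2 scale. PXYa was above both control libraries in both droughted libraries (log2 0.32 ± 0.14, adjusted p = 0.436), and so was PXYb (log2 0.37 ± 0.19, adjusted p = 0.535). Of 912 apex genes tested in these libraries, here defined by the same rule from the controls of the 24 h experiment, 18 were lower and 0 higher, with a median of -0.01.

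In young leaves after 25 days, PXYa was the only one of 4 genes tested to pass the threshold, where 6.82% of 24778 genes were lower. PXYa had 33.9 and 38.5 CPM in droughted and 51.8 and 66.0 CPM in control young leaves, a 1.64-fold decrease (log2 -0.71 ± 0.18, adjusted p = 0.0384). The call was lost without control library 70 (adjusted p = 0.0948), without droughted library 64 (0.212) and without droughted library 68 (0.0573). PXYb had 52.8 and 49.3 CPM in droughted and 60.0 and 77.1 CPM in control young leaves, without overlap (log2 -0.43 ± 0.18, adjusted p = 0.155). WOX4a and WOX4b overlapped between droughted and control leaves, at -0.21 ± 0.23 and 0.18 ± 0.38.

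Apex genes were also lower in those young leaves, with 361 lower and 2 higher of 845 tested (median -1.22) and a summed level of 7113 to 9592 CPM in droughted and 25148 to 26083 CPM in control young leaves. Of 607 mature leaf genes tested there, 225 were higher and 21 lower (median 0.69), with a summed level of 104705 to 115049 CPM in droughted and 76080 to 91621 CPM in control young leaves. The part of both lists in the PXYa result was not tested. In mature leaves after 25 days, 0 of 4 genes passed, where 5.36% of 23503 genes were called; 1 of 4 had an unadjusted p under 0.05 and DESeq2 called 0. That gene was PXYb, with 13.1 and 20.2 CPM in droughted and 26.4 and 26.8 CPM in control mature leaves (log2 -0.64 ± 0.22, adjusted p = 0.14). PXYa stood at -0.44 ± 0.23, WOX4a at -0.27 ± 0.28 and WOX4b at -0.01 ± 0.42 in these leaves.

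In root after 25 days, 4 of the 7 genes fell: ARK2, WOX4a, PXYa and PXYb. In mRNA libraries, where 14.7% of 27499 genes were called lower, ARK2 had 54.3 and 50.8 CPM under drought and 91.7 and 92.0 CPM in controls, a 1.82-fold decrease (log2 -0.86 ± 0.12, adjusted p = 0.012). With the values given above, WOX4a fell 2.09-fold (log2 -1.06 ± 0.15, adjusted p = 0.0123). PXYa fell 2.40-fold (log2 -1.26 ± 0.15, adjusted p = 0.00926) and PXYb 2.23-fold (log2 -1.15 ± 0.16, adjusted p = 0.012).

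Total RNA libraries of root gave the same 4 calls, where 14.3% of 27628 genes were called lower. WOX4a had 51.0 and 60.3 CPM under drought and 119 and 135 CPM in controls, a 2.41-fold decrease (log2 -1.27 ± 0.14, adjusted p = 0.00866). ARK2 fell 1.94-fold (log2 -0.95 ± 0.10, adjusted p = 0.00882), PXYa 2.41-fold (log2 -1.27 ± 0.18, adjusted p = 0.013) and PXYb 2.21-fold (log2 -1.14 ± 0.17, adjusted p = 0.014). The 2 library types carry the same title numbers, and their libraries deviated from the group means together across genes (r = 0.87 under drought and 0.84 in controls), so the second type is not counted as an independent set of plants.

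The root calls depend on control library 70. Without it, 0 of the 7 genes passed in mRNA libraries (adjusted p of the 4 genes 0.0645 to 0.0908) and 1 in total RNA libraries, WOX4a. Without control library 63, 2 genes passed in mRNA libraries. The sizes moved less, to -0.84 for ARK2, -0.91 for WOX4a, -1.18 for PXYa and -1.07 for PXYb in mRNA libraries without control library 70. Of 791 apex genes tested in root mRNA, 318 were lower and 26 higher (median -0.95), with a summed level of 14013 to 18060 CPM in droughted and 19851 to 20545 CPM in control root mRNA; their part in the root results was not tested.

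WOX4b, unlike WOX4a, did not pass the test in droughted root. WOX4b had 63.4 and 60.0 CPM under drought and 56.2 and 72.3 CPM in controls in mRNA libraries (log2 -0.12 ± 0.17, adjusted p = 0.637), with the droughted libraries between the control libraries. In total RNA libraries it had 66.1 and 64.8 CPM under drought and 67.9 and 82.1 CPM in controls (log2 -0.27 ± 0.13, adjusted p = 0.191).

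The paralog of ARK1 was high in droughted root library 68 alone. It had 33.6 and 90.7 CPM under drought and 29.3 and 30.9 CPM in controls in mRNA libraries (log2 0.98 ± 0.45, adjusted p = 0.167), and 38.1 and 97.5 CPM under drought and 36.2 and 41.4 CPM in controls in total RNA libraries (log2 0.72 ± 0.44, adjusted p = 0.275). Library 64 lay just above the control libraries in mRNA and between them in total RNA. Without library 64, where library 68 is the only droughted one and the spread comes from the controls, the estimates were 1.58 and 1.27 and both passed, a result of that single library. With all libraries, DESeq2 called it in mRNA libraries (adjusted p = 0.0491); without library 68 the estimate in total RNA was -0.09. ARK1 itself had too few root reads for a stable estimate, -0.68 ± 1.35 in mRNA and -1.39 ± 1.52 in total RNA libraries.

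**Figure D3:**
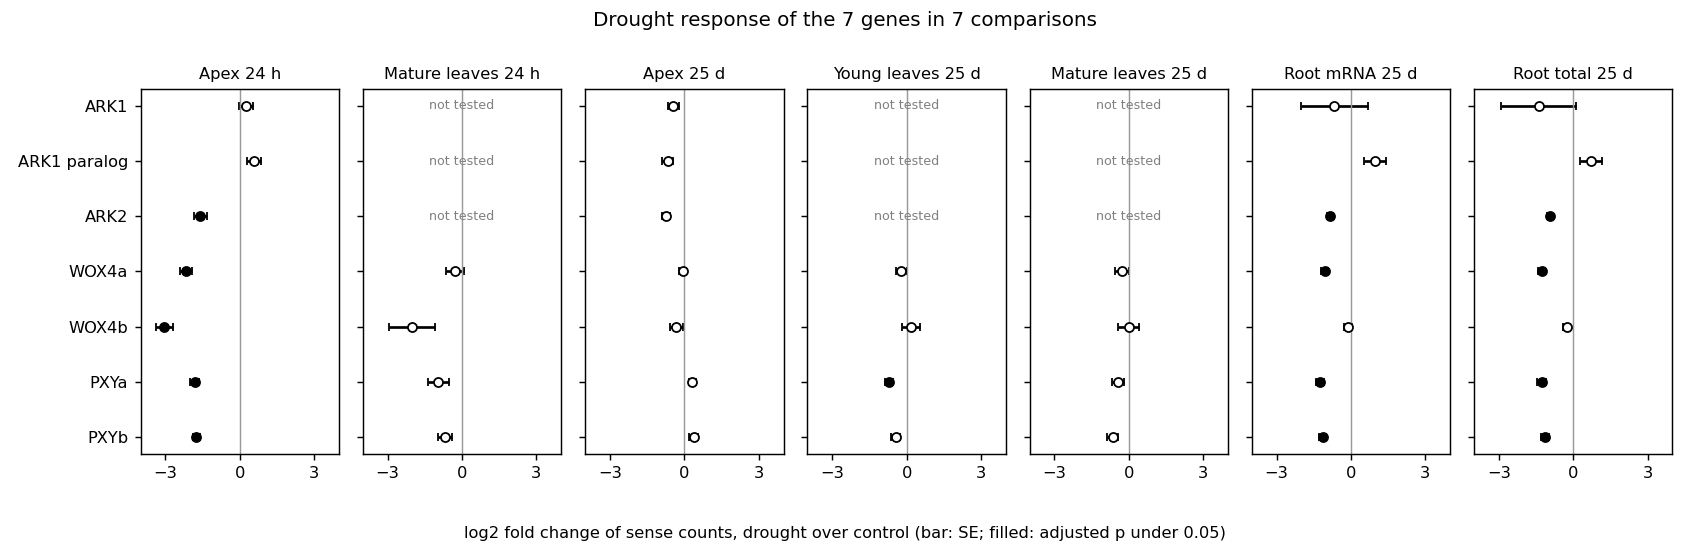
Log2 fold change of sense counts, drought over control, for the 7 genes in 7 comparisons, with the standard error as a bar and filled points for adjusted p under 0.05. Filled points appear for 5 genes in the 24 h apex, for PXYa in 25-day young leaves and for 4 genes in both root comparisons, all below 0.

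Tests of the difference between 2 drought responses were made for 10 pairs of comparisons. Between the 24 h apex and the 25-day apex, 5 of 7 genes differed, where 48.2% of 27733 genes did: WOX4a by -2.11 ± 0.27 (adjusted p = 0.000194), WOX4b by -2.72 ± 0.45 (0.000925), PXYa by -2.14 ± 0.23 (7.27e-05), PXYb by -2.12 ± 0.26 (0.000167) and the paralog of ARK1 by 1.25 ± 0.35 (0.0152), the last not called without control library 63 (0.0586). The length of drought and the library type changed together between these apices and cannot be told apart. ARK2 stood at -0.83 ± 0.32 (adjusted p = 0.0551) in this test.

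Among tissues, the 25-day response of the receptors differed between apex and root mRNA, PXYa by 1.55 ± 0.27 (adjusted p = 0.00214) and PXYb by 1.49 ± 0.31 (0.00626), and so did that of WOX4a, by 0.96 ± 0.25 (0.0179). These were 3 of 7 genes, where 16.9% of 28724 genes differed. Leaving out a title number here removed its libraries from every tissue of the fit at once. The estimates then ranged from 1.35 to 1.75 for PXYa, 1.04 to 1.90 for PXYb and 0.83 to 1.08 for WOX4a. The PXYb and WOX4a calls were not kept without number 63, 70 or 64. At 24 h, WOX4a alone differed between apex and mature leaves, by -1.90 ± 0.45 (adjusted p = 0.0133), 1 of 7 where 28.3% of 27796 genes differed. Without the control libraries numbered 19, of apex and of mature leaves, the WOX4a estimate was -1.62 and the call was not kept. The other 7 pairs gave 0 calls among the 7 genes, with at most 2 genes at an unadjusted p under 0.05 and at most 1 called by DESeq2. Over all genes, the share called was 2.27% for the 25-day apex against young leaves, 4.48% for apex against mature leaves and 1.96% for young against mature leaves. It was 8.53% for root mRNA against young leaves, 13.8% for root mRNA against mature leaves, 4.26% for mature leaves at 24 h against 25 days and 0% for root total RNA against root mRNA.

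The balance of the WOX4 pair differed between droughted and control root without overlap of libraries. The log2 ratio of WOX4a to WOX4b sense reads was -0.46 and -0.26 under drought and 0.64 and 0.54 in controls in mRNA libraries, and -0.37 and -0.11 under drought and 0.80 and 0.72 in controls in total RNA libraries. WOX4a thus held 42.1% (Wilson 95% interval 41.0 to 43.2) and 45.5% (44.4 to 46.7) of the pair's reads in droughted root mRNA libraries, against 60.9% (60.0 to 61.8) and 59.2% (58.4 to 60.1) in controls. These intervals cover counting error only, and libraries of a group differed by more than that. The difference of means was -0.95 in mRNA and -1.0 in total RNA libraries, without overlap, and the exact two-sided permutation test gave p = 0.333 for each, the smallest that 2 against 2 libraries allow.

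The pair's balance ran the other way in the 24 h apex, where the log2 ratio was 1.69 and 2.08 under drought and 0.73 and 1.27 in controls, again without overlap (exact permutation test, p = 0.333). In the 25-day apex the ratios overlapped, 1.23 and 1.77 under drought and 1.16 and 1.24 in controls. In leaves they did not overlap either. The difference of means was 2.95 in 24 h mature leaves, where droughted library 69 held 1 read of WOX4b. It was -0.41 in young leaves and -0.27 in 25-day mature leaves. Lack of overlap was thus not particular to root, and its share among other gene pairs was not counted. Root was the tissue with the lowest ratios: all 8 root libraries, at 0.80 or less, lay below all shoot libraries except control apex library 19 at 24 h, which stood at 0.73.

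The PXY pair divided the libraries by tissue. The log2 ratio of PXYa to PXYb reads was above 0 in all 8 apex libraries, with group means of 0.68 under drought and 0.75 in controls at 24 h and 0.36 under drought and 0.39 in controls at 25 days. It was below 0 in all 20 leaf and root libraries, with group means of -0.29 in droughted and -0.18 in control root mRNA and -0.50 in droughted and -0.21 in control young leaves. The differences between drought and control ranged from -0.29 to 0.22 over the 7 comparisons. Libraries did not overlap in young leaves (-0.29), 25-day mature leaves (0.22), root mRNA (-0.11) and root total RNA (-0.13), and overlapped in the other comparisons. Each comparison without overlap had p = 0.333 by the exact permutation test, the smallest that 2 against 2 libraries allow. The share of other gene pairs without overlap was not counted.

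**Figure D4:**
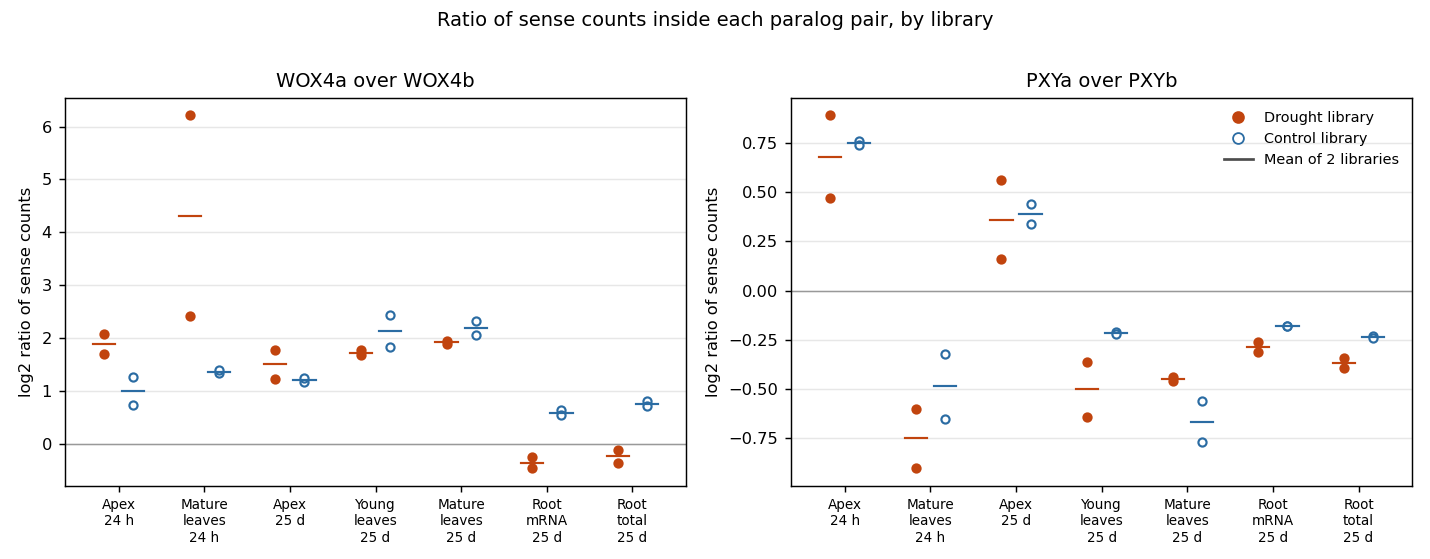
Log2 ratio of sense counts inside the WOX4 and PXY pairs by library, droughted libraries (filled) left of control libraries (open), with a line at the mean of 2. The WOX4 ratio lies below 0 in the 4 droughted root libraries and above 0 in the 4 control root libraries; the PXY ratio is above 0 in apex and below 0 elsewhere.

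Intron reads, which come mainly from RNA not yet spliced, followed the gene counts of most genes tested in root total RNA. In root total RNA libraries 5 of 6 genes tested fell in introns, where 9.56% of 17303 intron entries were lower. The log2 changes were -0.97 ± 0.15 for ARK2 (adjusted p = 0.000718), -1.25 ± 0.24 for WOX4a (0.00323), -1.87 ± 0.47 for WOX4b (0.0151), -0.97 ± 0.23 for PXYa (0.0104) and -0.87 ± 0.23 for PXYb (0.0195). Without control library 70 the calls of PXYa and PXYb were lost (0.0872 and 0.19). That of PXYb was also lost without droughted library 64 (0.0646) and that of WOX4b without control library 63 (0.189). DESeq2 called 2 of the 6. ARK2 had 253 and 177 intron reads under drought and 439 and 425 in controls, and 8.48 and 8.10 intron reads per 100 sense reads under drought and 8.40 and 8.47 in controls, so that intron and gene counts moved in step (log2 change of the ratio -0.02 ± 0.15). In root mRNA libraries only ARK2 passed (log2 -1.02 ± 0.29, adjusted p = 0.0281), 1 of 5 genes tested where 5.04% of 13116 entries were lower, and not without control library 63 (0.294) or 70 (0.214). The ratio of intron to gene counts gave 0 calls among 5 genes in root mRNA, 2 with an unadjusted p under 0.05, where 0.631% of 12986 entries passed.

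WOX4b was the exception to that step. It had 13 and 6 intron reads under drought and 46 and 26 in controls in root total RNA libraries, 0.264 and 0.157 per 100 sense reads under drought and 0.918 and 0.448 in controls, while its gene counts did not pass the test. The ratio of intron to gene counts fell by 1.61 ± 0.39 on the log2 scale (adjusted p = 0.0279), 1 of 6 genes tested where 1.24% of 17113 entries were lower. That call was lost without control library 63 (adjusted p = 0.365) and without droughted library 68 (0.135), and in root mRNA libraries WOX4b had 8 and 8 intron reads under drought and 15 and 8 in controls, too few to test.

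In the 24 h apex, the median change over 17985 intron entries was 0.87 on the log2 scale when scaled by gene counts. On that scale ARK1 was at 1.1 ± 0.45 (adjusted p = 0.0223) and the paralog at 1.25 ± 0.56 (0.037), both near the median, whereas PXYa was at -1.03 ± 0.44 (0.0304), PXYb at -0.98 ± 0.56 (0.108) and ARK2 at -0.66 ± 0.32 (0.054), far below it. These were 2 of 5 genes higher and 1 of 5 lower, where 58.6% of entries were higher and 10.7% lower. Scaled by the introns' own totals, ARK1 was at 0.25 and the paralog at 0.41, neither called. On that scale ARK2 at -1.53 (adjusted p = 0.000158) and PXYb at -1.82 (0.00761) were called lower, and PXYa at -1.89 stayed called lower.

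The reads behind those values were few. ARK1 had 27 and 34 intron reads in droughted and 25 and 11 in control apices, and ARK2 had 34 and 48 in droughted and 96 and 65 in control apices. Intron reads of ARK2 per 100 sense reads were 29.3 and 23.9 under drought and 12.5 and 15.3 in controls, and this ratio was called higher (log2 0.94 ± 0.30, adjusted p = 0.014), 1 of 5 genes where 51.7% of 17554 entries were higher; it was 0.06 (adjusted p = 0.896) with the introns' own totals. DESeq2 called 0 of the 5 genes in introns of the 24 h apex, and so did the test without control library 19 or 49; without droughted library 35 ARK1 alone was called. The ARK2 ratio was not called without control library 19 (adjusted p = 0.19) or 49 (0.0662). In introns of the leaves none of the 7 genes had enough reads to be tested, and in the 25-day apex only PXYa did (log2 -0.05 ± 0.39), not called where 0.107% of 6571 entries were.

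**Figure D5:**
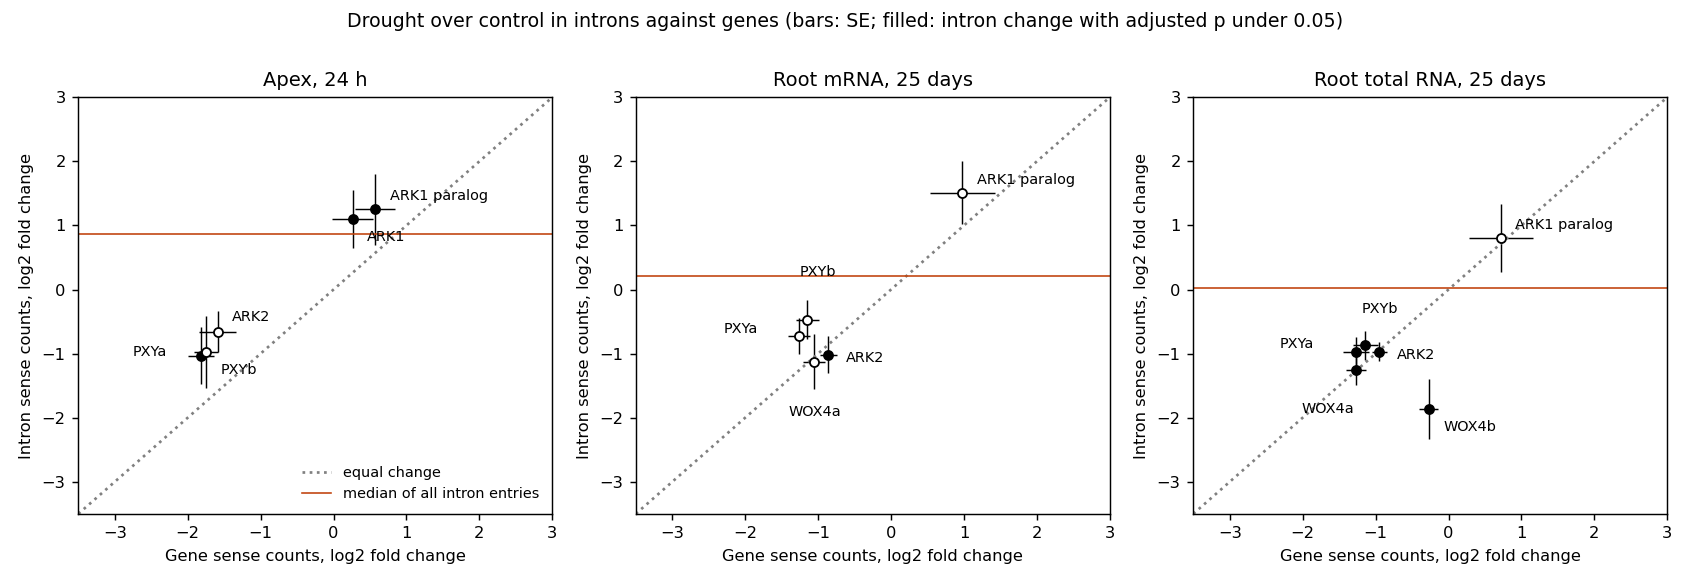
Log2 fold change of intron sense counts against that of gene sense counts, drought over control, with standard errors, in the 24 h apex and in both root library types; filled points passed the intron test, the dotted line marks equal change and the solid line the median of all intron entries. In the apex all 5 genes lie above equal change, as does the median of 0.87; in root total RNA WOX4b lies below it.

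Antisense reads over the 7 genes were scarce, 551 against 406998 sense reads over the 28 libraries. ARK1 had 0 antisense reads, which allows up to 3. The paralog had 170, in 10 libraries, or 0.609 per 100 sense reads, while ARK2 had 25, WOX4a 46, WOX4b 36, PXYa 131 and PXYb 143, between 0.0639 and 0.111 per 100 sense reads. Whole libraries had 1.38 to 8.27 antisense counts per 100 sense counts, above the pooled values of all 7 genes. A library's share sums over all genes, and how many single genes lie as low was not counted.

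Only root had enough antisense reads for a test, for the paralog, PXYa and PXYb in mRNA libraries and for the paralog and PXYb in total RNA libraries. None passed, by edgeR or by DESeq2, where 20.2% of 3130 and 16.7% of 3901 entries did in either direction; PXYb in total RNA had an unadjusted p of 0.0379 with 7 and 4 reads under drought and 16 and 13 in controls. The ratio of antisense to sense reads gave 0 calls as well, where 16.9% of 2407 and 14.1% of 2885 entries passed; 2 of 3 genes in mRNA and 1 of 2 in total RNA libraries had an unadjusted p under 0.05. Closest was the paralog in root mRNA, with 8 and 10 antisense reads under drought and 13 and 17 in controls beside sense reads that were high in droughted library 68 (log2 -1.54 ± 0.52, adjusted p = 0.052). Antisense reads in introns came to 35 over all libraries, 23 of them over the paralog, and none could be tested.

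Root was also the tissue in which the 2 kinds of library could be compared. In well-watered root, total RNA against mRNA libraries gave 0.38 ± 0.10 on the log2 scale for the paralog (adjusted p = 0.0378) and -0.36 ± 0.06 for ARK2 (adjusted p = 0.0124). These were 2 of 7 genes where 40.2% of 27904 genes were called. Over left-out libraries the estimates ranged from 0.29 to 0.45 and from -0.38 to -0.35, and neither call was kept. This test took the libraries as unpaired, though the library types share title numbers. With the number as a block more of the 7 genes were called, as given in the last section, so the count depends on the pairing. Whole control root libraries had 6.06 and 7.35 intron counts per 100 sense counts as total RNA, against 1.78 in each mRNA library. Summed over control libraries, ARK2 had 8.43 intron reads per 100 sense reads in total RNA and 1.72 in mRNA libraries. PXYa differed little, with 0.691 in total RNA against 0.622 in mRNA libraries. The paralog of ARK1, alone among the 7 genes, had fewer in total RNA, 3.60 against 4.79.

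Across the 14 groups, likeness of pattern was described by Pearson's r of log2(mean CPM + 1), with groups that share tissue and library type, among 30704 genes. WOX4a and WOX4b were most alike among the 7 genes (r = 0.983, ranks 4 and 8 in each other's order). Next came the paralog of ARK1 with WOX4b (0.951, ranks 116 and 237) and WOX4a with PXYb (0.948, ranks 138 and 38). PXYa with PXYb (0.947, ranks 49 and 39) and the paralog of ARK1 with ARK2 (0.946, ranks 144 and 74) followed. Many genes outside the 7 were thus more alike to these members than they were to each other. ARK1 and its own paralog reached 0.111. Closest to ARK1 were Potri.008G089200 (0.984) and Potri.007G098800 (0.981), to its paralog Potri.002G129700 (0.990) and Potri.007G011600 (0.986), and to ARK2 Potri.008G167700 (0.993) and Potri.013G046500 (0.990). Closest to WOX4a were Potri.009G013900 and Potri.005G050000 (0.994 each), to WOX4b Potri.016G064300 (0.990) and Potri.005G173900 (0.988), to PXYa Potri.001G468800 (0.986) and Potri.008G112600 (0.981), and to PXYb Potri.014G075700 (0.978) and Potri.007G122100 (0.976). Names for these neighbours were not used here.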

How the data were processed

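The deposited files hold counts of reads per gene and per intron, sense and antisense, for 28 libraries; per the submitters' processing notes, TopHat2 2.1.0, HTSeq 0.6.0 and DESeq2 were used. The genome build, the annotation and the counting options are not given in the sources used here, and whether reads shared by paralogs were dropped is therefore unknown. In 44 of 56 gene files closing lines count unassigned reads; they were left out (no-feature reads were 2.43 to 12.4%). Libraries of a group differed beyond counting noise in all 14 groups (chi-square per degree of freedom 26.55 to 119.7), so none was merged.

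Drought was compared with control in 7 combinations of tissue, drought length and library type with edgeR 4.0.16 in R 4.3.3 (filterByExpr with a minimum count of 10, trimmed mean of M-values, robust quasi-likelihood test) on all genes, with Benjamini-Hochberg adjustment and a threshold of 0.05. Errors of log2 fold changes are standard errors from that test. Antisense and intron counts used the sense library sizes; ratios of intron to gene and antisense to sense counts were tested with a term for each library. Tissues were compared within the controls of each experiment, and responses by interaction terms. DESeq2 1.42.0, no filter, shared dispersions, the files' own totals, a replicate block and leaving out each library were the alternatives. For differences of responses, a library was left out together with all others of its title number in that fit. The fits were also run on simulated counts with a single common dispersion and with known changes kept out of the lowest-count genes. That run therefore does not cover results that rest on few reads.

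The 7 genes were chosen by name and the lists by rule, in both cases with earlier results of these data known. The text names these 7 genes and, for each, the 2 genes most alike over the 14 groups. Apex and mature leaf genes were called between the tissues of the other experiment's controls, at least 8-fold apart and at 5 CPM or more. A planned list of other meristem and cambium genes by product name gave 0 matches to the reference table and no result. Positions and sequences are not given, because no genome or annotation with these identifiers was used here.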

Additional observations from a re-analysis of the deposited data

Results flagged for a closer look

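A difference between 2 drought responses was found by the interaction test for 9 results. Between the 24 h and the 25-day apex these were the paralog of ARK1 (log2 difference 1.25), WOX4a (-2.11), WOX4b (-2.72), PXYa (-2.14) and PXYb (-2.12), with library type changing together with drought length. Between the 25-day apex and root mRNA they were WOX4a (0.96), PXYa (1.55) and PXYb (1.49), and between the 24 h apex and mature leaves WOX4a (-1.90). With 2 libraries in each group, no library was tested for standing apart.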

How the results depend on the processing

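Of the calls for single genes, 6 of 14 in sense drought contrasts, 2 of 9 in introns, 0 of 2 for the intron to gene ratio, 40 of 43 between tissues, 0 of 2 between root library types and 5 of 9 differences of responses held under all alternatives. Each drought comparison rests on 2 libraries a group, and 0 of 7 genes had leaf introns testable.

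Numbers of the 7 genes called, by lowest and highest on leaving out a library, were 0 to 3 in 24 h mature leaves (0 with all), 0 to 1 in young leaves (1), 0 to 5 in root mRNA (4); root total RNA gave 1 to 5 (4). For introns they were 0 to 3 in the 24 h apex (3), 0 to 3 in root mRNA (1); root total RNA gave 3 to 5 (5). For the intron to gene ratio they were 0 to 2 in the 24 h apex (1), 0 to 1 in root mRNA (0); root total RNA gave 0 to 1 (1); for the antisense to sense ratio in root mRNA 0 to 1 (0). Differences of responses gave 0 to 2 for 24 h apex and mature leaves (1), 1 to 3 for apex and root (3), 0 to 1 for apex and mature leaves at 25 days (0) and 0 to 1 for mature leaves at 24 h and 25 days (0). The comparison of root library types gave 0 without any library; these exclusions were chosen after seeing the data.

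DESeq2 called 0 genes in introns of the 24 h apex, 0 in root mRNA and 2 in root total RNA; for differences of responses it called 2 between 24 h apex and mature leaves and 1 each for 25-day apex against young leaves, apex against mature leaves, root against young leaves and root against mature leaves. Shared dispersions gave 0 in introns of the apex and 2 in root mRNA introns, where no filter gave 2. The files' own totals gave 3 in root mRNA introns, 0 for the apex intron ratio and 1 for the root mRNA antisense ratio. The cause was not tested.

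Droughted and control groups share no title numbers, so drought could not be paired with control. Tissues and library types do share numbers, but not every pair of groups deviated together (correlations -0.02 to 0.87). The replicate block therefore stands here alone. It gave 6 genes called between root library types. For differences of responses it gave 2 for the 24 h apex against mature leaves and 1 each for apex against young leaves and root against young leaves. No other count moved beyond 1.5 times. The share of all genes called with the block is not given here, so whether these counts exceed it cannot be told.

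Log2 estimates that changed sign, none of them called with all libraries, ranged over left-out libraries as follows. ARK1 ran between -0.10 and 0.54 in the 24 h apex, -4.77 and 0.97 in root mRNA; its root total RNA range was -7.65 to 0.67. WOX4a ran between -0.68 and 0.19 in 24 h mature leaves and -0.49 and 0.03 in young leaves. WOX4b ran between -0.16 and 0.58 in young leaves, -0.25 and 0.17 in 25-day mature leaves and -0.30 and 0.09 in root mRNA. The paralog in root total RNA ran between -0.09 and 1.27 for the gene and -0.08 and 1.41 for introns.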
